A study of Rattus norvegicus with 24 samples.

Results

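The substantia nigra and the ventral tegmental area (SN/VTA) of the rat midbrain were dissected as a single region and profiled on 4 of the 24 Affymetrix Rat RAE 230 2.0 arrays of the study, which held 6 brain regions. The SN/VTA arrays were chosen by their titles. Each was compared with the mean of the prefrontal cortex, hippocampus and cerebellar vermis arrays of the same strain group, which makes 12 arrays of other regions and 4 differences, and the 8 arrays of dorsal and ventral striatum were left out. The 4 strain groups were Sprague-Dawley rats exposed to polychlorinated biphenyls (SDpcb, 4 rats), unexposed Sprague-Dawley rats (SD, 8 rats), spontaneously hypertensive rats (SHR, 8 rats) and Wistar-Kyoto rats (WKY, 8 rats). The study compared them as environmental and genetic models of attention deficit hyperactivity disorder. All 28 rats were males taken at postnatal day 55 to 65. Compound, dose and time of the exposure are not given in the sources used here, and neither is whether an array held RNA pooled from more rats. Each strain group had 1 array per region, so differences between strain groups within SN/VTA are values without a test. The test of region measures agreement of the region difference across the 4 strain groups.

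Dopamine neurons of the substantia nigra project to the dorsal striatum and serve movement, and those of the ventral tegmental area project to the ventral striatum and prefrontal cortex and serve reward and attention. They make dopamine from tyrosine with tyrosine hydroxylase (Th) and aromatic amino acid decarboxylase (Ddc), load it into vesicles with the vesicular monoamine transporter (Slc18a2) and take it back up with the dopamine transporter (Slc6a3). Ret is the signalling receptor for glial cell line-derived neurotrophic factor, and Slc17a6 encodes a vesicular glutamate transporter used mainly by subcortical neurons. GABA neurons of the nigra, long myelinated tracts and the hypothalamus lie beside or among these cells.

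The regions upstream of the 4 marker genes are shown because these genes serve here as markers of the dissected tissue. Each sequence is the 250 bases before the annotated start of transcription, 5′ to 3′ on the gene's strand, from RefSeq on the GRCr8 build. It lies at chr1:31578963-31579212 on the minus strand for Slc6a3, at chr1:207508219-207508468 on the minus strand for Th, at chr4:153040557-153040806 on the minus strand for Ret and at chr1:110348197-110348446 on the plus strand for Slc17a6.
Slc6a3: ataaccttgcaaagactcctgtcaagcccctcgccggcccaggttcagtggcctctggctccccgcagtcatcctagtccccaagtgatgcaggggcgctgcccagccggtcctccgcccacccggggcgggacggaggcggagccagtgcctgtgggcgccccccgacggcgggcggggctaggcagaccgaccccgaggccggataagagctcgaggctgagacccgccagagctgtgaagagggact
Th: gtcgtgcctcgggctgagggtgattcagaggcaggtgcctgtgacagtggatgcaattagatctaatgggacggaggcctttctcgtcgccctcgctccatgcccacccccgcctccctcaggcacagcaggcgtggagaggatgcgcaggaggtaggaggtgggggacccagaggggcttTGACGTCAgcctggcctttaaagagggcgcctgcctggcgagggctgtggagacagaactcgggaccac
Ret: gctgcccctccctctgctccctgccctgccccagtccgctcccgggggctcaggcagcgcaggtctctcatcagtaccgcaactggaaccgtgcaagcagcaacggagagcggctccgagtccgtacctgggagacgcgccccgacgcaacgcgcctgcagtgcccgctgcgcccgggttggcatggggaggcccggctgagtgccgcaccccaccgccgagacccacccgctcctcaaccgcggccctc
Slc17a6: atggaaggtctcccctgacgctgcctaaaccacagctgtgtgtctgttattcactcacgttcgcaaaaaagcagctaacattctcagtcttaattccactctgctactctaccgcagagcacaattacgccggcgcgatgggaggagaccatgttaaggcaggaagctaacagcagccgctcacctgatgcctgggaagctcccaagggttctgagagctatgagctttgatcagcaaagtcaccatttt
Capitals mark TGACGTCA, the cyclic AMP response element, which was added to the search after the sequences had been read. It stood 69 bases before the start of Th, and it occurs in 1.59% of 33469 promoters of this length. The letters AAGGTCA (bound by Nr4a2-type receptors), TAATCC (bound by Pitx-type factors) and TGTTTAC (bound by forkhead factors) were searched on both strands and are not in these 4 windows. They occur in 3.99%, 6.34% and 3.22% of the promoters.

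The deposited values are MAS5 signals, a linear brightness per probe set scaled to the same trimmed mean on every array. The median signal was 92.8 on the SDpcb array of SN/VTA and 110 to 139 on its other 3 arrays, against 89.0 to 178 on the 12 arrays of the other regions. Signals under 50 made up 40.0% of probe sets on the SDpcb array of SN/VTA and 25.1% to 33.4% on its other 3 arrays. The SDpcb and SHR arrays of SN/VTA also held more of the hypothalamic transcripts described below, so results are given with and without the SDpcb array, and counts for these transcripts also without the SHR array. Detection calls are not given, so whether a dim probe set lies above background is unknown. Fewer cells of a type and less RNA per cell cannot be told apart in such tissue samples.

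All 4 marker genes were higher in SN/VTA than in the mean of the other 3 regions. Slc6a3 had signals of 955 (SDpcb), 7789 (SD), 8411 (SHR) and 5916 (WKY) in SN/VTA, against 2.99 to 122 with a median of 31.2 on the other 12 arrays. The groups did not overlap, and the SDpcb array was the lowest of the 4 SN/VTA arrays. The difference was 7.24 ± 0.42 on the log2 scale (SE, n = 4 differences, limma, adjusted p = 8.08e-07), a 151-fold difference, and 7.75 ± 0.38 without SDpcb. Th had signals of 217 (SDpcb), 2222 (SD), 3742 (SHR) and 1367 (WKY) in SN/VTA, against 3.51 to 91.2 on the other 12 arrays. It differed by 6.15 ± 0.55 (adjusted p = 1.74e-05), and by 6.73 ± 0.56 without SDpcb (adjusted p = 1.38e-06), and its order across the 4 SN/VTA arrays was SDpcb, WKY, SD and SHR from low to high. Slc17a6 was the most even of the 4 markers, with SN/VTA signals of 6534 (SDpcb), 5742 (SD), 5923 (SHR) and 5996 (WKY), against 192 to 1850 elsewhere. Its difference was 3.61 ± 0.14 (adjusted p = 5.07e-08), and 3.66 without SDpcb.

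Ret was not restricted to SN/VTA. Its signals there were 2762 (SDpcb), 7006 (SD), 5912 (SHR) and 5106 (WKY), against 78.2 to 4719 on the other 12 arrays, so the groups overlapped. The difference from the mean was 2.65 ± 0.23 (adjusted p = 1.15e-05), and 2.94 ± 0.18 without SDpcb. SN/VTA was above prefrontal cortex by 4.85 ± 0.36 and above hippocampus by 2.88 ± 0.24 (adjusted p = 3.16e-05 and 9.07e-06). From the vermis, where Ret averaged 4219 ± 560 (SD, n = 4), it differed by 0.23 ± 0.18 (adjusted p = 0.402). In the 8 striatal arrays Slc6a3 had signals of 8.79 to 120, Th 1.29 to 249, Ret 143 to 491 and Slc17a6 39.0 to 650. The striatum receives the dopamine axons. Its arrays lay below all 4 SN/VTA arrays for Slc6a3, while for Th its SD dorsal array, at 249, lay above the SDpcb array of SN/VTA, at 217.

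**Figure D1:**
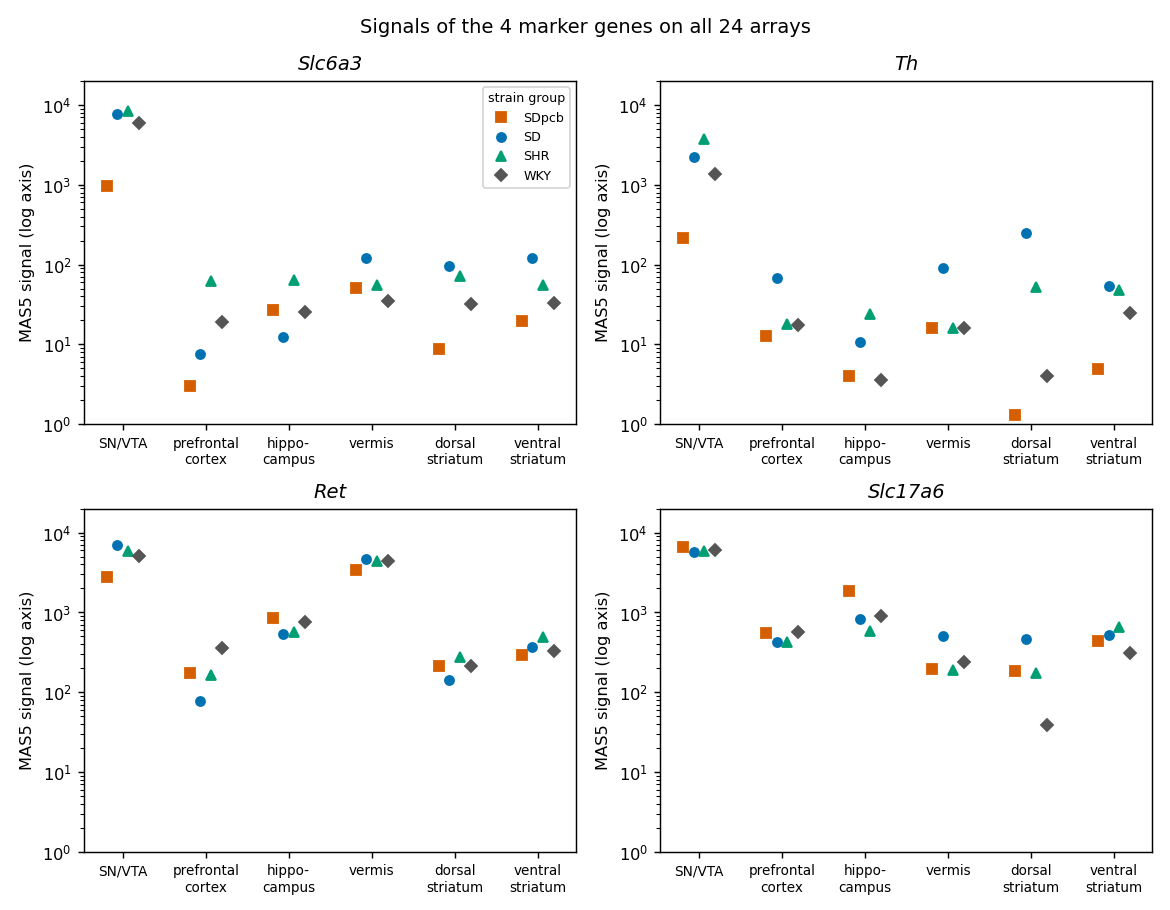
MAS5 signals (log axis) of Slc6a3, Th, Ret and Slc17a6 on all 24 arrays, by region and strain group, 1 point per array. Slc6a3 and Slc17a6 are highest on the 4 SN/VTA arrays, Th reaches 249 on 1 striatal array, against 217 on the SDpcb array of SN/VTA, Ret is also bright in vermis, and the SDpcb array of SN/VTA is low for Slc6a3, Th and Ret.

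Across the array, 1943 of 31042 probe sets were higher (6.26%) and 2109 lower (6.79%) in SN/VTA at an adjusted p under 0.05. Counted as genes, each by its brightest probe set, 1299 of 14217 were higher (9.14%) and 855 lower (6.01%), with a median difference of 0.01 over all genes. Without SDpcb, 1657 genes were higher (11.7%) and 972 lower (6.84%). When the regions were taken singly, 334 genes were higher than each of the 3 (2.35%) and 178 were lower than each (1.25%). The calls rest on moderation of the variance with a trend on signal: without the trend limma called 0 probe sets (smallest adjusted p = 0.0545, 6892 at an unadjusted p under 0.05), and with a filter on signal and no trend it called 1708 higher and 1705 lower. Of the called probe sets 48.0% were higher, and 73.2% when each array was centred on its median. The median difference over all probe sets was 0.10 after centring, against -0.10 as deposited. Leaving out SD lowered the counts to 1372 higher and 1477 lower, leaving out SHR to 1105 and 1205, and leaving out WKY to 1042 and 1066. List counts below that leave out SD, SHR or WKY are to be read against this general loss of calls. Where the count of a list without SDpcb is not given, it was the same as over all 4 arrays. All list counts are to be read against the 9.14% of genes higher and 6.01% lower, or 11.7% and 6.84% without SDpcb. All 4 SN/VTA arrays lay above all 12 others for 1.61% of genes and below them for 0.879%.

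Of the 12 measured genes of dopamine synthesis and transport, 6 were higher and 0 lower, with a median difference of 1.33, and the same number passed without SDpcb. All 6 were also higher than each of the 3 regions. Slc18a2 had SN/VTA signals of 3828 (SDpcb), 6566 (SD), 6692 (SHR) and 5107 (WKY), against 557 to 1890 elsewhere, a difference of 2.47 ± 0.17 (adjusted p = 2.74e-06). Ddc had 447 (SDpcb), 1486 (SD), 643 (SHR) and 651 (WKY), against 50.1 to 185, a difference of 3.04 ± 0.32. Neither gene overlapped with the other regions. Qdpr, which regenerates the cofactor of tyrosine hydroxylase and is also abundant in oligodendrocytes, differed by 1.29 ± 0.13. Aldh1a1, which oxidises the aldehyde of dopamine in ventral nigral neurons, differed by 1.37 ± 0.25, and its 4 differences were 0.07 (SDpcb), 2.08 (SD), 1.94 (SHR) and 1.40 (WKY). Among members that did not pass was Gch1, the first enzyme of cofactor synthesis, at 1.36 ± 0.60 with dim signals of 16.3 to 112 in SN/VTA.

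Of 20 measured identity factors and receptors of dopamine neurons, 9 were higher and 2 lower, with the same counts without SDpcb. Without SHR 5 were higher, and 1 was lower without SD or without WKY. Only 2 of the 20 were higher than each of the 3 regions, and against vermis alone 5 were higher and 2 lower. Their summed signal was 15628.5 to 19603.7 in SN/VTA, against 32135.5 to 42593.4 in vermis. Sncg, gamma-synuclein, had SN/VTA signals of 202 (SDpcb), 570 (SD), 731 (SHR) and 641 (WKY), against 2.49 to 170, a difference of 3.56 ± 0.48 (adjusted p = 0.000357). Slc10a4, a vesicular protein of monoamine and cholinergic neurons, had 84.9 (SDpcb), 1196 (SD), 1441 (SHR) and 709 (WKY), against 4.55 to 105. Its difference was 4.43 ± 0.70, and the SDpcb array alone lay within the range of the other regions. Calb2, calretinin, differed by 2.31 ± 0.14 from the mean but was not higher than each region, with signals of 2245 to 2518 in SN/VTA, against 60.5 to 2861 elsewhere. Otx2, a midbrain transcription factor of ventral tegmental neurons that cerebellar granule cells also express, differed by 1.45 ± 0.26. The 2 lower members were Kcnj6, a potassium channel subunit that dopamine receptors open, at -0.81 ± 0.14 and Calb1, calbindin, at -0.73 ± 0.17. Calb1 did not pass without SD or without WKY (adjusted p = 0.0798 and 0.107).

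Nr4a2, Pitx3 and Foxa2, transcription factors of dopamine neuron development, did not pass the test. Nr4a2 had SN/VTA signals of 259 (SDpcb), 188 (SD), 343 (SHR) and 174 (WKY), against 151 to 853 elsewhere, a difference of -0.57 ± 0.26 (adjusted p = 0.187). Pitx3 was dim, with 0.833 to 30.6 in SN/VTA, against 1.22 to 39.0, and its difference of 0.55 ± 0.85 had an adjusted p of 0.731. Foxa2 differed by 1.94 ± 0.64 (adjusted p = 0.068). En2, engrailed 2, had 43.7 (SDpcb), 783 (SD), 616 (SHR) and 766 (WKY), against 0.853 to 9616 with the highest values in vermis, and passed without SDpcb (2.01, adjusted p = 0.000329). Drd2, the dopamine D2 receptor that these neurons carry as an autoreceptor, had 63.2 (SDpcb), 91.1 (SD), 227 (SHR) and 198 (WKY), against 11.3 to 101. Its difference of 1.58 ± 0.48 had an adjusted p of 0.0465 over all 4 arrays. It was 0.0777 without SD, 0.141 without SHR and 0.235 without WKY.

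**Figure D2:**
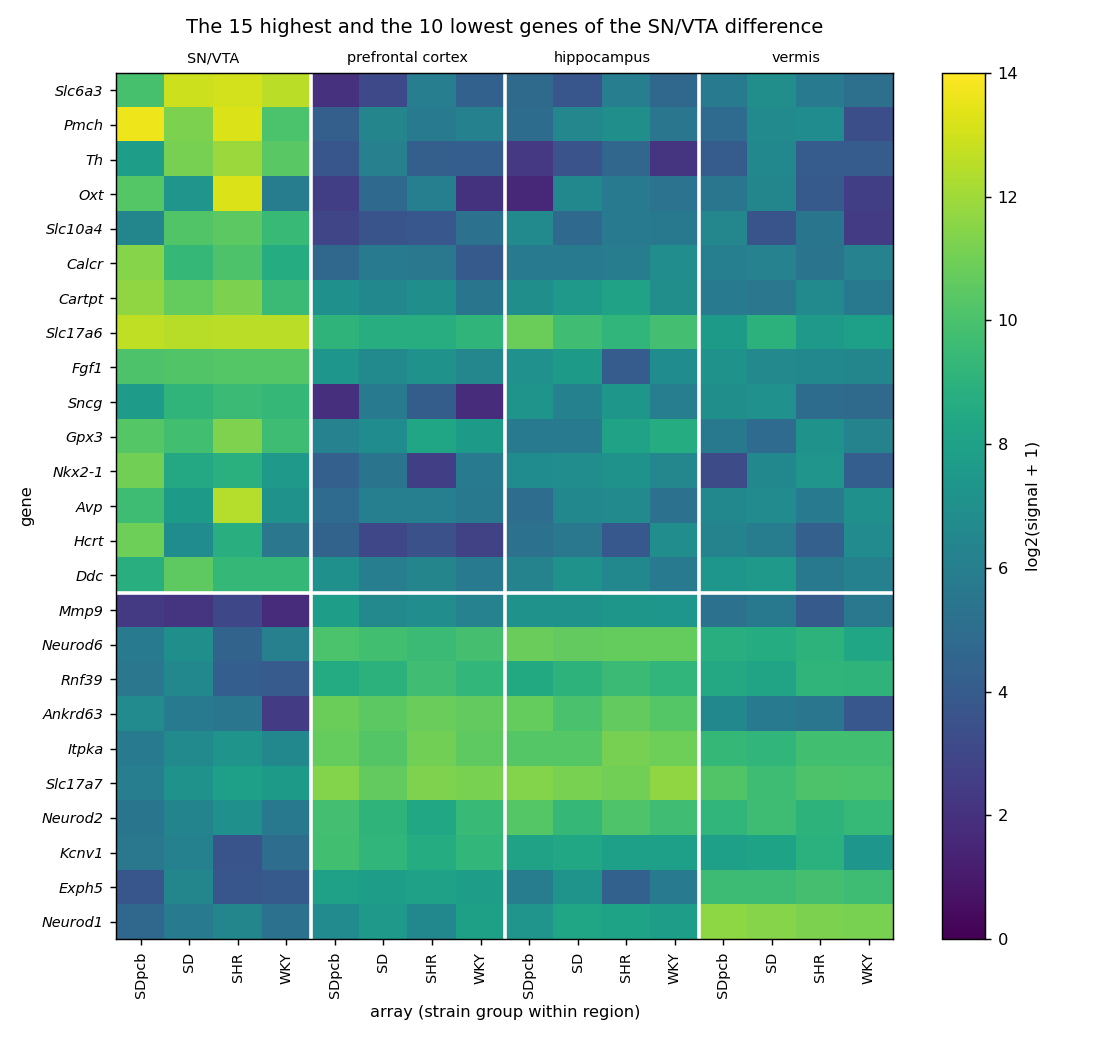
log2(signal + 1) of the 15 genes with the highest and the 10 with the lowest SN/VTA difference among those past the threshold with the same sign in all 4 strain groups, on the 16 arrays used. Dopamine and hypothalamic genes fill most of the upper block, and within SN/VTA they differ between arrays.

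Transcripts of hypothalamic neurons were also high in SN/VTA, to an extent that differed between arrays. Of 21 measured genes of this list, 12 were higher and 0 lower (median 1.71), and 9 were higher without SDpcb. Without SDpcb and SHR 3 were higher, where 5.79% of all genes were called higher. Values without SDpcb and SHR, here and below, come from another limma fit, additive in region and strain group, on the SD and WKY arrays. The part of the change of fit and of the fewer arrays in the fall from 12 to 3 was not tested. Pmch, the precursor of melanin-concentrating hormone, had SN/VTA signals of 13017 (SDpcb), 2447 (SD), 9765 (SHR) and 1038 (WKY), against 9.34 to 124 elsewhere. It differed by 6.37 ± 0.54 (adjusted p = 1.12e-05) and by 4.88 without SDpcb and SHR (adjusted p = 0.000102), and all 4 SN/VTA arrays lay above the other regions. Cartpt, a peptide precursor of hypothalamic and other neurons, had 3245 (SDpcb), 1683 (SD), 2394 (SHR) and 758 (WKY), against 42.5 to 266, and differed by 4.20 ± 0.27.

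Other hypothalamic transcripts sat mainly on the SDpcb and SHR arrays. Oxt, oxytocin, had 1283 (SDpcb), 156 (SD), 9747 (SHR) and 58.6 (WKY), against 2.07 to 91.3, and Avp, vasopressin, had 801 (SDpcb), 194 (SD), 5563 (SHR) and 145 (WKY), against 29.1 to 127. Their differences of 4.76 ± 0.92 and 3.21 ± 0.68 passed the threshold over all 4 arrays and not without SDpcb and SHR (adjusted p = 0.230 and 0.257). Hcrt, orexin, had 1900 (SDpcb), 113 (SD), 454 (SHR) and 46.5 (WKY), against 5.79 to 113, and lost its call without SDpcb (adjusted p = 0.0759) and without SHR (0.0908). Nkx2-1, a transcription factor of the ventral forebrain, had 2111 (SDpcb), 351 (SD), 480 (SHR) and 190 (WKY), against 5.16 to 158. Sim1, Hdc and Trh, which mark further hypothalamic neurons, differed by 2.73 ± 0.72, 2.64 ± 0.45 and 2.80 ± 0.57, and Sim1 lost its call without SDpcb or without SHR (adjusted p = 0.107 and 0.0731). Pomc and Otp stayed dim, at 6.80 to 9.10 and 2.79 to 20.6 in SN/VTA.

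The summed signal of the 21 hypothalamic genes was 29677 (SDpcb), 14244 (SD), 39525 (SHR) and 8277 (WKY) in SN/VTA, against 1807 to 8419 on the other 12 arrays. The summed signal of the 12 dopamine genes was 14310 (SDpcb), 33204 (SD), 32749 (SHR) and 26588 (WKY), against 4798 to 8791. The SDpcb array was thus high for the hypothalamic and lowest for the dopamine genes, while the SHR array was high for both. Dissection, exposure and strain cannot be told apart here, since each strain group had 1 SN/VTA array. The part of the hypothalamic transcripts in other results was not tested.

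**Figure D3:**
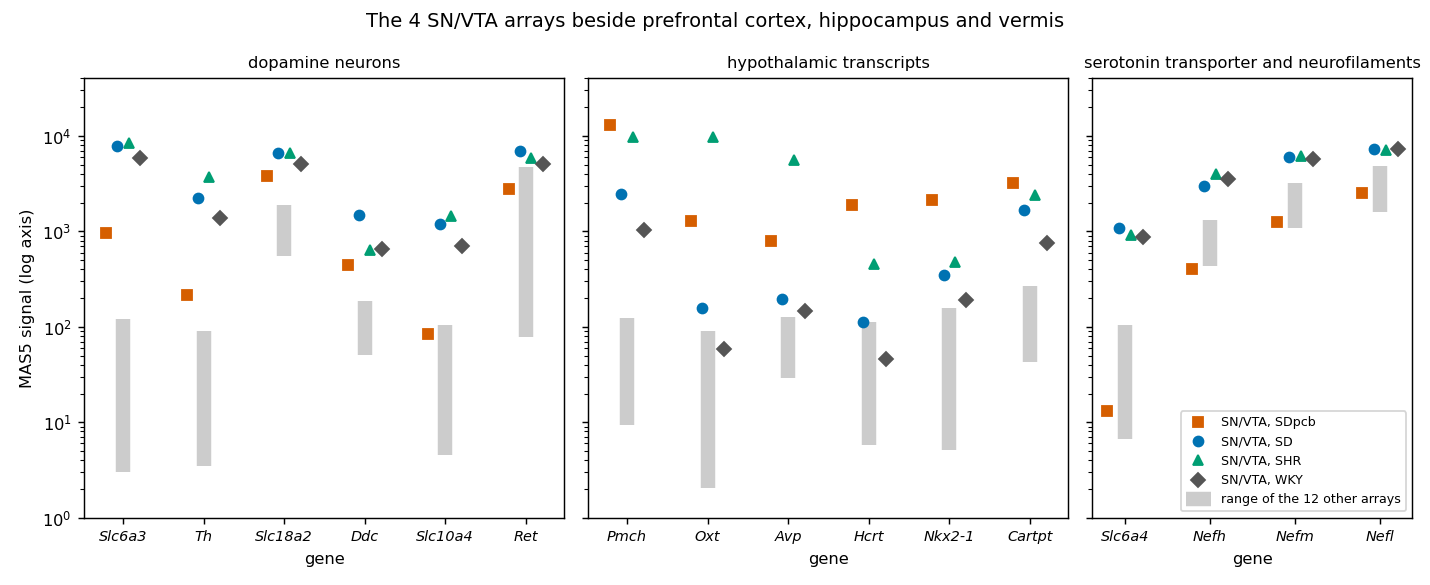
MAS5 signals (log axis) of dopamine neuron genes, hypothalamic transcripts, the serotonin transporter and neurofilament genes on the 4 SN/VTA arrays (points), with the range of the 12 arrays of prefrontal cortex, hippocampus and vermis (grey bars). The SDpcb array is lowest for dopamine genes, Slc6a4 and neurofilaments, and the SDpcb and SHR arrays are highest for Pmch, Oxt, Avp and Hcrt.

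Among 20 neuropeptides and granins, 8 were higher and 2 lower, with the same counts without SDpcb and 1 lower without SD, SHR or WKY. Tac1, the substance P precursor, had SN/VTA signals of 1873 (SDpcb), 458 (SD), 478 (SHR) and 867 (WKY), against 19.2 to 481, a difference of 2.69 ± 0.26 (adjusted p = 3.16e-05). Resp18, an endocrine secretory granule protein, had 7554 (SDpcb), 5473 (SD), 7916 (SHR) and 4136 (WKY), against 957 to 2502, with no overlap and a difference of 1.82 ± 0.12. Scg2, secretogranin II, and Cbln2, a synaptic organiser, differed by 1.71 ± 0.14 and 1.74 ± 0.15. Nts, neurotensin, differed by 2.20 ± 0.37. Of 27 peptide hormone receptors 7 were higher and 0 lower, with 6 higher without SDpcb and 4 without SHR or without WKY. Calcr, the calcitonin and amylin receptor, had the largest difference of these, with 2832 (SDpcb), 635 (SD), 1109 (SHR) and 398 (WKY), against 14.7 to 115, and a difference of 4.20 ± 0.45. Trhr, the thyrotropin-releasing hormone receptor, differed by 1.86 ± 0.32, without overlap.

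Of 8 genes listed for subcortical glutamate neurons, transcription factors among them, 5 were higher and 0 lower. Without SDpcb 4 were higher, and without WKY 3. Besides Slc17a6 the higher genes included Tcf7l2 and Shox2, transcription factors of thalamic and midbrain neurons and not genes of glutamate release, at 1.65 ± 0.14 and 2.38 ± 0.30. Tcf7l2 had signals of 8403 (SDpcb), 7914 (SD), 5584 (SHR) and 8045 (WKY) in SN/VTA, against 1402 to 5660 elsewhere. Of 17 genes of midbrain GABA neurons 5 were higher and 0 lower, and 3 were higher without SD and 2 without SHR or without WKY. Gad1, a GABA-synthesising enzyme, had 5620 to 7556 in SN/VTA, against 4646 to 15116, and differed by -0.18 ± 0.13 (adjusted p = 0.400), and Gad2 by 0.28 ± 0.23. Glra2, a glycine receptor subunit, had 3004 (SDpcb), 1153 (SD), 927 (SHR) and 1555 (WKY), against 146 to 1613, and a difference of 1.82 ± 0.14.

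Serotonin neurons of the raphe lie behind the ventral tegmental area. Of 8 of their genes 1 passed: Slc6a4, the serotonin transporter, had 13.2 (SDpcb), 1074 (SD), 907 (SHR) and 876 (WKY), against 6.68 to 104, so 3 arrays stood above the other regions and the SDpcb array did not. Its difference was 3.73 ± 0.77 (adjusted p = 0.00655), with an adjusted p of 9.33e-06 without SDpcb. Fev, the transcription factor of these neurons, had 2.05 (SDpcb), 135 (SD), 128 (SHR) and 23.6 (WKY) and did not pass. Over all genes 9.14% were called higher. The summed signal of the 8 genes was 2553 to 3076 in SN/VTA, against 1044 to 2391 in prefrontal cortex, hippocampus and vermis. Its highest SN/VTA value, 3076, was on the SDpcb array, where Slc6a4 and Fev were lowest, so the sum did not follow these genes there. In the striatum, left out of the comparison, the sum was 4028 to 5132 on the dorsal and 1591 to 3212 on the ventral arrays. Of 8 genes of cholinergic and motor neurons 2 were higher, Prph, peripherin, at 2.97 ± 0.43 and Slc5a7, the choline transporter, at 2.43 ± 0.52. Slc5a7 lost its call without WKY (1.92, adjusted p = 0.0589). Of 10 nicotinic receptor subunits 0 passed by limma (2 at an unadjusted p under 0.05). Chrna6, the subunit most typical of dopamine neurons, was dim at 13.4 to 94.0 in SN/VTA, against 3.45 to 108, and differed by 1.39 ± 0.56 (adjusted p = 0.132).

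Neurofilaments, the cytoskeleton of thick axons, were higher on 3 of the 4 SN/VTA arrays. Nefh had 399 (SDpcb), 3004 (SD), 4027 (SHR) and 3571 (WKY), against 428 to 1305 elsewhere. Nefm had 1256, 6067, 6158 and 5761 on the SDpcb, SD, SHR and WKY arrays, against 1072 to 3240, and Nefl had 2501, 7220, 7107 and 7369, against 1590 to 4861. The SDpcb array thus lay among the other regions or below them for all 3 genes. Differences were 1.53 ± 0.36, 0.97 ± 0.29 and 0.81 ± 0.21 over all 4 arrays, and 2.21, 1.51 and 1.19 without SDpcb (adjusted p = 5.34e-08, 3.78e-07 and 2.08e-06). Of the 13 genes of this list 5 were higher and 0 lower, with 6 higher without SDpcb and 2 without SD, SHR or WKY. Without SD, without SHR or without WKY Nefh, Nefm and Nefl did not pass (adjusted p of 0.0608 to 0.198).

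Of the glial lists, that of myelin had the largest share of members called. Of 24 measured genes of oligodendrocytes 20 were higher and 0 lower, with a median of 1.22, and 11 were higher than each of the 3 regions. Without SDpcb 21 were higher. Mog had 1212 (SDpcb), 2157 (SD), 2381 (SHR) and 2262 (WKY), against 281 to 1280, a difference of 1.60 ± 0.18 (adjusted p = 8.41e-05), and Mag differed by 1.70 ± 0.22. Both encode proteins of the myelin sheath. Ugt8, which makes a myelin lipid, and Gsn, the actin-severing gelsolin, differed by 1.49 ± 0.17 and 1.38 ± 0.14. Sox10, the transcription factor of the lineage, differed by 1.71 ± 0.32. Mbp, myelin basic protein, was very bright everywhere, with 12948 to 21992 in SN/VTA, against 10674 to 25841, and its brightest probe set differed by 0.07 ± 0.11 (adjusted p = 0.754). Another probe set of Mbp was higher by 1.43 (adjusted p = 0.000873). The summed signal of the list was 80926 (SDpcb), 143839 (SD), 120672 (SHR) and 111985 (WKY), against 45760 to 101012.

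**Figure D4:**
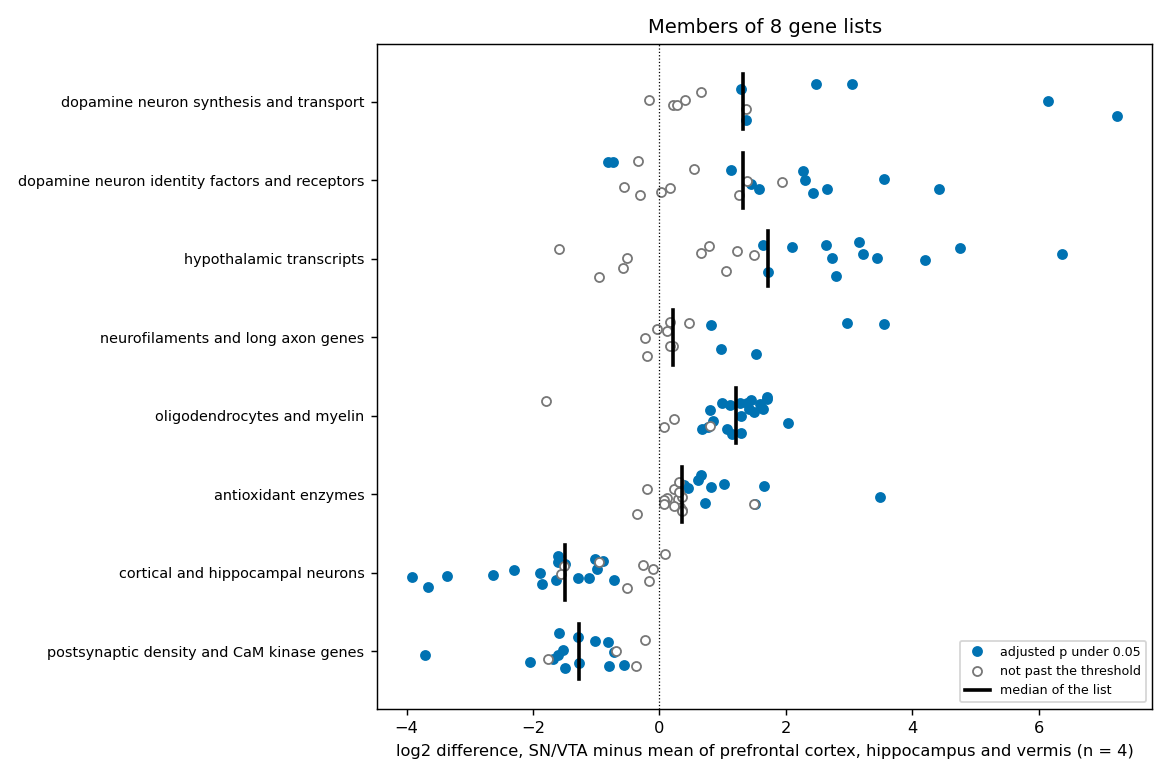
log2 differences, SN/VTA minus the mean of prefrontal cortex, hippocampus and vermis (n = 4), for the measured members of 8 gene lists, filled where the adjusted p is under 0.05, with list medians as bars. Dopamine, hypothalamic and myelin genes lie mainly above 0, cortical and hippocampal neuron genes and postsynaptic genes mainly below.

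Astrocyte genes were split, with 9 of 19 higher and 1 lower. Agt, angiotensinogen, had 2760 (SDpcb), 4937 (SD), 6733 (SHR) and 3399 (WKY), against 469 to 1667, a difference of 2.15 ± 0.15 (adjusted p = 2.52e-06). Slc6a9, a glycine transporter, and Itih3 differed by 1.81 ± 0.17 and 1.38 ± 0.13, and for none of these 3 genes did the regions overlap. Slc1a3, a glutamate transporter, differed by -0.53 ± 0.11 and did not pass without WKY (adjusted p = 0.0815). Without SDpcb 10 astrocyte genes were higher, and without SD or without SHR 5. Of 11 vessel genes 6 were higher, with 3 without SD or without SHR and 2 without WKY. Higher calls over all probe sets also fell, from 1943 to 1372 without SD, 1105 without SHR and 1042 without WKY. Kdr, the vascular growth factor receptor, differed by 1.37 ± 0.21. Of 13 genes of meninges and fibroblasts 5 were higher, among them Igf2 at 1.45 ± 0.19. Without SDpcb 7 were higher, without SD or without SHR 2, and without WKY 3. The summed signal of the 13 genes was 13359 (SDpcb), 26543 (SD), 22497 (SHR) and 8333 (WKY) in SN/VTA, against 3954 to 18173. Of 8 genes of choroid plexus and ependyma 2 were higher, and 0 without SD, without SDpcb or without SHR. Ttr, transthyretin, varied from 608 to 8138 in SN/VTA, against 24.6 to 20978 elsewhere. Among 11 microglial genes 2 were higher, with 3 without SDpcb, 0 without SHR and 1 without SD or without WKY. Of 3 blood genes 0 passed by limma (1 at an unadjusted p under 0.05), and 1 was higher without SDpcb.

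Growth factor genes were led by Fgf1, the acidic fibroblast growth factor. It had 1084 (SDpcb), 1187 (SD), 1245 (SHR) and 1262 (WKY) in SN/VTA, against 16.1 to 194, with little spread between the 4 arrays and a difference of 3.56 ± 0.27 (adjusted p = 5.50e-06). Of 21 genes of the GDNF, FGF and neurotrophin families 8 were higher and 1 lower, with 7 higher and 3 lower without SDpcb. Gfra1, the GDNF co-receptor that works with Ret, differed by 1.13 ± 0.25, and Gfra2 by 0.95 ± 0.16. Gfra1 did not pass without SHR or without WKY (adjusted p = 0.0731 and 0.0585). Ntf3, neurotrophin 3, was lower, at 40.6 to 90.3 in SN/VTA, against 78.3 to 594 elsewhere, a difference of -1.80 ± 0.26.

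Antioxidant enzymes were higher in 10 of 25 cases and lower in 0, with 14 without SDpcb and 5 without SD, SHR or WKY. Gpx3, a secreted glutathione peroxidase, had 1248 (SDpcb), 867 (SD), 2525 (SHR) and 810 (WKY), against 28.4 to 407, and differed by 3.48 ± 0.32 (adjusted p = 2.28e-05). Gstp1, a glutathione transferase, and Mgst1, its microsomal relative, differed by 1.52 ± 0.15 and 1.65 ± 0.20. Of 12 Parkinson disease genes 3 were higher and 0 lower, and 6 without SDpcb. Uchl1, a neuronal ubiquitin hydrolase, differed by 0.99 ± 0.10. Of 9 iron handling genes 0 passed by limma (1 at an unadjusted p under 0.05), with the nearest, ceruloplasmin (Cp), at 0.84 ± 0.26 (adjusted p = 0.0508), and 1 was higher without SDpcb or without WKY. Of 19 respiratory chain genes 1 passed, Sdhc at 0.43 ± 0.11, and it did not pass without SD, SHR or WKY, while 4 of the 19 were higher without SDpcb. Over all genes 9.14% were higher, and 11.7% without SDpcb.

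Genes of cortical and hippocampal projection neurons were lower. Of 25 measured genes 17 were lower and 0 higher (median -1.49), and 16 were lower without SDpcb. Slc17a7, the vesicular glutamate transporter of cortex, had 63.6 (SDpcb), 138 (SD), 237 (SHR) and 195 (WKY) in SN/VTA, against 812 to 3326, and differed by -3.66 ± 0.25 (adjusted p = 2.52e-06). Neurod6 and Neurod2, transcription factors of excitatory cortical neurons, differed by -3.91 ± 0.31 and -3.37 ± 0.28, and Bhlhe22 by -2.63 ± 0.15. None of these 4 genes overlapped between SN/VTA and the other regions. The glutamate transporters Slc17a6 and Slc17a7 thus ran in opposite directions.

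Postsynaptic density and calmodulin kinase genes were lower in 14 of 18 cases and higher in 0 (median -1.28), with 14 without SDpcb. Itpka, a spine kinase of inositol trisphosphate, had 53.1 (SDpcb), 103 (SD), 151 (SHR) and 92.0 (WKY), against 601 to 2278, and differed by -3.71 ± 0.18 (adjusted p = 2.09e-07). Homer1, a scaffold of the postsynaptic density, differed by -1.52 ± 0.10, and Shank2 and Shank3, further scaffolds, by -1.59 ± 0.16 and -1.61 ± 0.13. Camk4 had 83.3 to 96.2 in SN/VTA, against 199 to 580. Of 15 AMPA, NMDA and kainate receptor genes 7 were lower and 1 higher, and 4 were lower without SHR or without WKY. Gria1, an AMPA receptor subunit, differed by -1.40 ± 0.13, and Gria2 by -0.75 ± 0.12. The exception was Grin2d, an NMDA receptor subunit, with 2090 (SDpcb), 1940 (SD), 2578 (SHR) and 2325 (WKY), against 154 to 755, a difference of 2.51 ± 0.15 (adjusted p = 9.98e-07) or 5.71-fold. Gabrd, an extrasynaptic GABA receptor subunit, differed by -3.22 ± 0.29.

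Among the lowest genes outside these lists were Mmp9, an extracellular matrix protease, and Rnf39. Mmp9 had 4.12 (SDpcb), 3.25 (SD), 7.13 (SHR) and 2.40 (WKY), against 14.8 to 232, and differed by -4.13 ± 0.50, a value that rests on dim signals. Rnf39 had 45.4 (SDpcb), 92.7 (SD), 17.3 (SHR) and 15.4 (WKY), against 292 to 840. Kcnv1, a modifier subunit of potassium channels, differed by -3.35 ± 0.34, and Ankrd63 by -3.74 ± 0.41. For Exph5 the difference was -3.33 ± 0.38.

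Cerebellar genes depended on the region compared. Against the mean of the 3 regions 7 of 19 were lower and 0 higher (8 lower without SDpcb, 1 higher without WKY). Against the vermis alone 17 were lower and 0 higher (median -2.84), where 8.23% of all genes were lower and 12.1% higher. Itpr1, the inositol trisphosphate receptor of Purkinje cells, had 4118 (SDpcb), 4973 (SD), 2472 (SHR) and 2862 (WKY), against 6311 to 26752. It differed from the mean by -1.66 ± 0.11 (adjusted p = 2.36e-06). Neurod1, a factor of granule cells, differed by -3.29 ± 0.27 without overlap. Of 11 striatal neuron genes 2 were higher and 1 lower, with 0 higher without SD or without SHR, 1 without WKY, and 2 lower without SDpcb. Their summed signal was 2937 to 4331 in SN/VTA. In the striatum, left out of the comparison, it was 45118.3 to 51263.5 on the dorsal and 31704.6 to 36631.3 on the ventral arrays. Ppp1r1b, the dopamine-regulated phosphatase inhibitor of striatal neurons, had 302 (SDpcb), 406 (SD), 612 (SHR) and 372 (WKY), against 530 to 1317, and differed by -1.07 ± 0.16. Of 13 dopamine receptor and signalling genes 3 were higher and 2 lower. Gnal, the G protein of striatal dopamine signalling, was higher at 1.18 ± 0.16, and Pde10a, a striatal phosphodiesterase, lower at -1.01 ± 0.13. Without SDpcb 4 were higher and 3 lower. With the striatal arrays taken into the comparison 1 was higher and 6 were lower.

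The study set out from genes of epigenetic regulation and of attention deficit hyperactivity disorder. Of 21 histone deacetylases and acetyltransferases 4 were higher and 2 lower, and 5 were higher and 2 lower without SDpcb. Without WKY 2 were higher, and without SHR or without WKY 1 was lower. Over all genes 9.14% were higher and 6.01% lower, and 11.7% and 6.84% without SDpcb. Hdac11 had 1185 (SDpcb), 1536 (SD), 1758 (SHR) and 1551 (WKY), against 256 to 1210, and differed by 1.28 ± 0.14 (adjusted p = 6.22e-05). Sirt2, a deacetylase abundant in oligodendrocytes, differed by 0.91 ± 0.18, and Ncoa1, a coactivator with acetyltransferase activity, by -0.60 ± 0.10. Of 20 DNA and histone methylation genes 0 were higher and 1 was lower, Tet3 at -0.57 ± 0.17, which did not pass without SD, SHR or WKY, and 2 were lower without SDpcb. Of 20 attention deficit candidates 4 were higher and 2 lower. Without SDpcb 3 were higher and 3 lower, and 1 was lower without SD or without WKY. Over all 4 arrays the called genes included Slc6a3, Slc6a4 and Cdh13, T-cadherin, at 0.92 ± 0.14. Adra2c, an alpha-2 adrenergic receptor, was lower, at -2.13 ± 0.41 with dim signals of 8.46 to 118 in SN/VTA. Snap25, a protein of vesicle release, differed by -0.48 ± 0.10 and did not pass without SD or without WKY.

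Over the 24 arrays, the genes whose log2 signals correlated best with Slc6a3 were Th, Klk6, Slc18a2, Tppp3 and Gpr137b, with Pearson coefficients of 0.881, 0.876, 0.871, 0.869 and 0.866. The arrays share regions and strain groups, so the coefficients are a description. Klk6, a serine protease, had 440 (SDpcb), 1473 (SD), 1659 (SHR) and 1226 (WKY), against 124 to 422, and Tppp3, a tubulin-binding protein, had 637, 1131, 1225 and 1004 on the same arrays, against 71.2 to 210. Like Slc6a3, both were lowest on the SDpcb array and did not overlap with the other regions. All 4 SN/VTA arrays lay above all 12 others for 229 genes (1.61%) and below them for 125 genes (0.879%).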

How the data were processed

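RNA of 6 brain regions from 4 strain groups was hybridised to 1-colour Affymetrix arrays after purification with RNeasy columns and amplification with the Ovation kit, per the labels' protocols. The authors deposited 1 intensity per probe set and array, made with MAS5 per the submitters' processing notes. Version, background treatment and detection calls are not given in the sources used here. The 2% trimmed mean of each array was 500.15 to 500.19, so the deposited intensities are linear and scaled.

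Of 31099 probe sets 57 controls were set aside. The platform annotation gave 1 symbol to 20826, several to 436 and none to 9780, and a gene was read from its brightest probe set over the 16 arrays used. The 100 other probe sets of 64 named genes ran against the sign in 21 cases, and in 0 of these were both called. Values were transformed as log2(signal + 1), which shrinks differences only for the dimmest signals. Without detection calls, the size of a difference between dim signals is uncertain.

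The 4 within-strain-group differences were tested in limma 3.58.1 under R 4.3.3 (two-sided, moderated with a trend, 3 residual and 9.4 prior degrees of freedom, Benjamini-Hochberg over 31042 probe sets, threshold 0.05, no filter). The number of arrays limits the precision, and an exact sign-flip test of 4 differences cannot go below 0.125. Arrays were paired by strain group. Whether the arrays of a strain group hold RNA of the same rats is not given in the sources used here. Deviations from region means correlated at 0.0973 to 0.428 between regions of a strain group (22 of 24 pairs over 0.1). Between strain groups they correlated at -0.359 to 0.182, with a median of -0.0896 (6 of 72 pairs over 0.1). The deviations of a region sum to 0 over its 4 arrays, which by itself draws the values between strain groups below 0. The comparison therefore does not test the pairing. Median signal also differed by strain group, with means of 98.3 for SDpcb, 163 for SD, 153 for SHR and 121 for WKY arrays, and its part in the correlation was not tested. The fit was also run on simulated differences with independent normal noise drawn from its own fitted variances. Such a run cannot check the trend on signal, since it takes that trend as given.

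Genes named were the 4 markers, the 15 highest and 10 lowest genes with the same sign in all 4 differences, up to 5 called members of each of 37 lists by p (2 where none passed), the 10 genes highest above each region, the 5 most like Slc6a3, and hypothalamic genes over a signal of 1000. Another 22 were named after their values were seen: Aldh1a1, Nr4a2, Pitx3, Foxa2, En2, Otx2, Mbp, Mag, Sox10, Hdc, Trh, Gad1, Gad2, Gch1, Fev, Ttr, Pomc, Otp, Sim1, Gfra1, Calb1 and Slc1a3. The members and lists were chosen with earlier results of these data known. Lists held 609 genes, of which 519 were measured. Alternatives changed the block, scaling, pseudocount, filter, trend, probe set choice, threshold, reference regions and strain groups.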

Additional observations from a re-analysis of the deposited data

Results flagged for a closer look

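Among 161 genes examined, 10 had a strain group whose difference stood apart from the other 3 by Dixon's test, which chance alone does in about 1 in 20 groups of values. For 161 genes that rate gives a number close to 10, so the flags are given as values only. The SDpcb array was the low value for Slc6a4 (-0.085), Nefh (-0.512), Nefm (-0.657), Nefl (-0.318), Klk6 (0.885) and Ppp1r1b (-1.59). The other 3 differences lay between 4.79 and 5.20 for Slc6a4 and between 2.05 and 2.29 for Nefh. The SHR array was the low value for Hdac2 (-0.808) and the high value for Mmp9 (-3.07), whose signals are dim. The WKY array was the high value for Tcf7l2 (2.26) and the low value for Resp18 (1.43). SDpcb accounts for 6 of the 10 values, but Nefh, Nefm and Nefl among them moved together across the SN/VTA arrays. In each of the 6 regions the SDpcb array had the lowest median signal of the 4. Its SN/VTA array also had the lowest log2 ratio of 3′ to 5′ Gapdh control signal (0.82) and the lowest median log2 signal of the spiked control transcripts (3.54) of the 24 arrays. Their part in these values was not tested.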

How the results depend on the processing

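Leaving out each strain group in turn, probe sets higher in SN/VTA numbered 1042 to 2361 and those lower 1066 to 2408, and those higher than each region 184 to 664 and lower than each 203 to 468, with the highest values without SDpcb and the lowest without SHR or WKY. Without the trend limma called 0 in either direction (6892 at an unadjusted p under 0.05), and in the additive fit without trend, chosen after seeing the data, 1283 were higher. With no replicate block, the strain groups unpaired, 1029 were higher and 986 lower, and 34 of the 161 named genes lost their call, Sox10, Otx2 and Drd2 among them. Centring on the median gave 3536 higher and 1292 lower. A log2 difference of at least 1 left 680 higher and 1111 lower. With 1 probe set per gene 1389 were higher and 921 lower, out of 14217 tested instead of 31042. An additive fit without SDpcb and SHR, added after seeing the data, gave 1170 higher and 1274 lower, and 32 named genes lost their call, among them Oxt, Avp, Hcrt, Nkx2-1, Nts and Adra2c. Without the trend 141 lost it. The other settings left both counts within 1.5 times, though the filter on signal reached 2052 higher and 1977 lower out of only 15521 tested. The direction turned with the striatal arrays taken into the comparison (all 5 other regions) for Drd2 (-0.31), Gad2 (-0.30), Kcnj6 (0.083) and Penk (-0.63) and with median centring for Gad1 (0.015). Leaving out each strain group in turn, it also turned for 3 genes that were not called, Mbp (-0.0004 to 0.17, the lowest without SHR), Pitx3 (-0.30 to 1.09) and Ttr (-0.71 to 1.16, both lowest without WKY). Mbp passed with quantile normalization (0.33, adjusted p = 0.0216). The cause of these changes was not tested. Detection calls are missing, so dim genes such as Mmp9, Pitx3 and Chrna6 carry no statement on presence.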

Other observations

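Other gene groups differed little or in a few members. Of 8 genes of mammillary, subthalamic and thalamic neurons 3 were higher and 0 lower, with Gbx2, a thalamic transcription factor, at 288 (SDpcb), 207 (SD), 235 (SHR) and 85.8 (WKY) in SN/VTA, against 11.9 to 123 elsewhere. Of 5 oligodendrocyte precursor genes 2 were higher and 1 without SD, SHR or WKY, led by Bcas1 at 0.73 ± 0.13, a protein of newly forming oligodendrocytes. Of 24 pacemaker and ion channel genes 1 was higher and 4 were lower. Kcnip3, an accessory subunit of potassium channels, was among the lower, at -1.05 ± 0.20. Without SDpcb 3 were higher and 5 lower. Without SD, SHR or WKY 0 were higher, and without SD 2 were lower. Of 14 metabotropic glutamate and GABA receptor genes 1 was higher and 2 were lower, with 4 lower without SDpcb, and 0 higher and 1 lower without SD, SHR or WKY. Of 9 Hox genes, which mark hindbrain and spinal cord, 0 passed by limma, and 0 had an unadjusted p under 0.05.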
